A study of Mus musculus with 2 samples.

Results

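Of 9 genes of the Notch pathway, those for 1 receptor, Notch2, and 1 ligand, Jag1, were at least 2-fold lower in the Mof null culture than in the wild type culture, and the other 7 were within 2-fold. Both calls rest on the brightest probe set of the gene, and neither gene was past 2-fold when its probe sets were averaged. By the same rule 11.9% of all 12015 expressed genes were lower and 5.09% higher, so the count does not set the 9 genes apart. The 9 genes were chosen by symbol as receptors (Notch1, Notch2, Notch3), ligands (Jag1, Jag2, Dll1), the DNA-binding partner of the cleaved receptor (Rbpj) and transcriptional targets (Hes1, Hey1), out of 18193 genes with a probe set that names 1 gene. They were read by 17 probe sets. The study measured total RNA of 2 mouse embryonic stem cell lines on 1 Affymetrix array each. One line was labelled null for Mof (MOF-/-) and the other wild type (MOF +/+). Mof, gene symbol Kat8, is an acetyltransferase of histone H4. Both lines were C57BL/6, came from embryos at 3.5 days post coitum, were at passage 15 to 18, and had been grown on feeder fibroblasts with LIF and then for 2 passages without feeders. With 1 array and 1 line per genotype, a difference between genotypes cannot be told apart from one between lines or cultures, and no difference has a replicate error, a test or a p-value. Differences were therefore read against a fixed size of 2-fold (1 log2 unit).

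Notch receptors are cell surface proteins that bind ligands of the Jagged and Delta-like families on neighbouring cells. Binding leads to cleavage by ADAM proteases and then by gamma-secretase, which frees the intracellular domain to enter the nucleus, join RBPJ on DNA and activate genes such as Hes1 and Hey1, whose products repress differentiation genes. In mouse embryonic stem cells the pathway is known for promoting neural fate when the cells differentiate.

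The values were log2 RMA values, spanning 2.85 to 14.7 on the Mof null array (median 6.01) and 2.77 to 14.6 on the wild type array (median 6.02). A gene or probe set counted as expressed if it reached 6.02, the median over all probe sets of the 2 arrays, on at least 1 array, as 12015 genes did. All 11 embryonic stem cell markers examined were above that level on both arrays. The single Kat8 probe set read 8.37 in the Mof null culture and 8.06 in the wild type culture, and it does not check the labels, since the sources used here do not place this probe set relative to the deletion. The 3' control probe set of beta-actin exceeded the 5' one by 0.65 log2 units on the Mof null array and 0.38 on the wild type array, that of GAPDH by 0.061 on the Mof null array and 0.15 on the wild type array, and that of the transferrin receptor by 1.80 on the Mof null array and 1.86 on the wild type array. The one spread available here was that between probe sets reading the same gene, a pooled SD of 0.33 log2 units over the differences in 5362 genes read by several expressed probe sets, which holds no variation between cultures.

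Promoters of 7 of the 9 genes, all but Hes1 and Hey1, were found in the RefSeq promoter table (build GRCm38.p6), which has 9 entries for them because Dll1 and Rbpj each have 2 starts. The 250 bases upstream of each start were searched on both strands for TGGGAA, the core motif bound by RBPJ, for the GC box GGGCGG and for the TATA box TATAAA. The sequences of Notch2 and Jag1 are shown because these genes passed 2-fold, that of Notch1 because its values were nearly equal on both arrays, and that of the first start of Rbpj because only the Rbpj entries held the RBPJ motif. Capitals mark GC boxes in Notch2 and Notch1 and the RBPJ motif in Rbpj, on either strand. All are written 5′ to 3′ on the strand of the gene and end at the base before the start.
Notch2 upstream bases, chr3:98013288-98013537, plus strand: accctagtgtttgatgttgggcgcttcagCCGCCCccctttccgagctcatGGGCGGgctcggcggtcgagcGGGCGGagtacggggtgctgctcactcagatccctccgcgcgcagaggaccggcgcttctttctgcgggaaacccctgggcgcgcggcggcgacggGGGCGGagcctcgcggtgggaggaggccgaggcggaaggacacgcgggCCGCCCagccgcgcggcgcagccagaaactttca
Notch1 upstream bases, chr2:26503823-26504072, minus strand: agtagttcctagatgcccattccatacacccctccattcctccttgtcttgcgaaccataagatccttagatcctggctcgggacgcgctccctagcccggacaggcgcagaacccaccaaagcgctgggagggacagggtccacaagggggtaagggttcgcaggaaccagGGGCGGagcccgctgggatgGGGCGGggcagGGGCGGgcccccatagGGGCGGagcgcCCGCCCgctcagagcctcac
Jag1 upstream bases, chr2:137116521-137116770, minus strand: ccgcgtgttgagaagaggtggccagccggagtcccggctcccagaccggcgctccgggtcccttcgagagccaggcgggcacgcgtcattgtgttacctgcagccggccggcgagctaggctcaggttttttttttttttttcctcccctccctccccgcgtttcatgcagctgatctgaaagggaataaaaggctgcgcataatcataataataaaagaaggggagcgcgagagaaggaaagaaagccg
Rbpj upstream bases, chr5:53590096-53590345, plus strand: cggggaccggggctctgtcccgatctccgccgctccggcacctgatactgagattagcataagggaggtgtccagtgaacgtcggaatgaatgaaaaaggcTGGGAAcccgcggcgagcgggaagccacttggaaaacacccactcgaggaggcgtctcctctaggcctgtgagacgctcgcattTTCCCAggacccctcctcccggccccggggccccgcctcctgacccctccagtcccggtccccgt
The upstream bases of Notch2 held 5 GC boxes and had a GC content of 72.0%, and those of Notch1 held 5 and had 66.0%. The upstream bases of Jag1, with a GC content of 57.2%, held none of the 3 motifs. Of the other entries, Notch3 held 4 GC boxes and Jag2 held 5, of which 2 overlap, while both Dll1 entries held none. GC boxes were thus present in 4 of the 9 entries (4 of the 7 genes), against 32.7% of 32851 upstream windows of the same length in the table. With 9 entries this count is too small to read as an excess. The RBPJ motif was found in Rbpj alone, with 1 match on the plus strand 149 to 144 bases before the first start and 1 on the minus strand 65 to 60 bases before it. The match on the minus strand also lies in the overlapping window of the second start, and 21.6% of all windows held this motif. No member entry held the TATA box, which 12.4% of all windows held. The windows of Notch2 and Jag1 shared no motif of this search, and those of the receptors Notch1 and Notch2 shared the GC box. Any link between these motifs and the array values was not tested.

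Among the receptors, Notch2 was lower in the Mof null culture and the other two were close to equal on their brightest probe sets. Notch2, a broadly expressed receptor, read 9.17 in the Mof null culture and 10.4 in the wild type culture on its brightest probe set (1455556_at). The Mof null array was the lower one, by 1.28 log2 units or 2.43-fold, and 8.78% of the 12015 expressed genes had a more negative difference. The second Notch2 probe set (1451889_at) was below the level filter on both arrays, at 5.25 in the Mof null culture and 4.97 in the wild type culture, and ran the other way by 0.29. Notch2 therefore rests on 1 expressed probe set.

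Notch1, the receptor most studied in early development and T cells, read 9.76 in the Mof null culture and 9.80 in the wild type culture on its brightest probe set (1418634_at). Its other probe set (1418633_at) read 8.42 in the Mof null culture and 8.41 in the wild type culture. The differences of -0.04 and 0.014 lay on either side of 0, within the SD between probe sets of a gene, and 40.5% of expressed genes lay below the first of them. Notch3, a receptor known for its role in vascular smooth muscle and pericytes, read 9.81 in the Mof null culture and 9.97 in the wild type culture on its brightest probe set (1421965_s_at), whose suffix marks possible matches to several transcripts. Its probe set without that suffix (1421964_at) read 7.29 in the Mof null culture and 7.76 in the wild type culture. Both Notch3 probe sets were lower in the Mof null culture, by 0.16 and by 0.47 log2 units, and neither reached 2-fold.

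**Figure D1:**
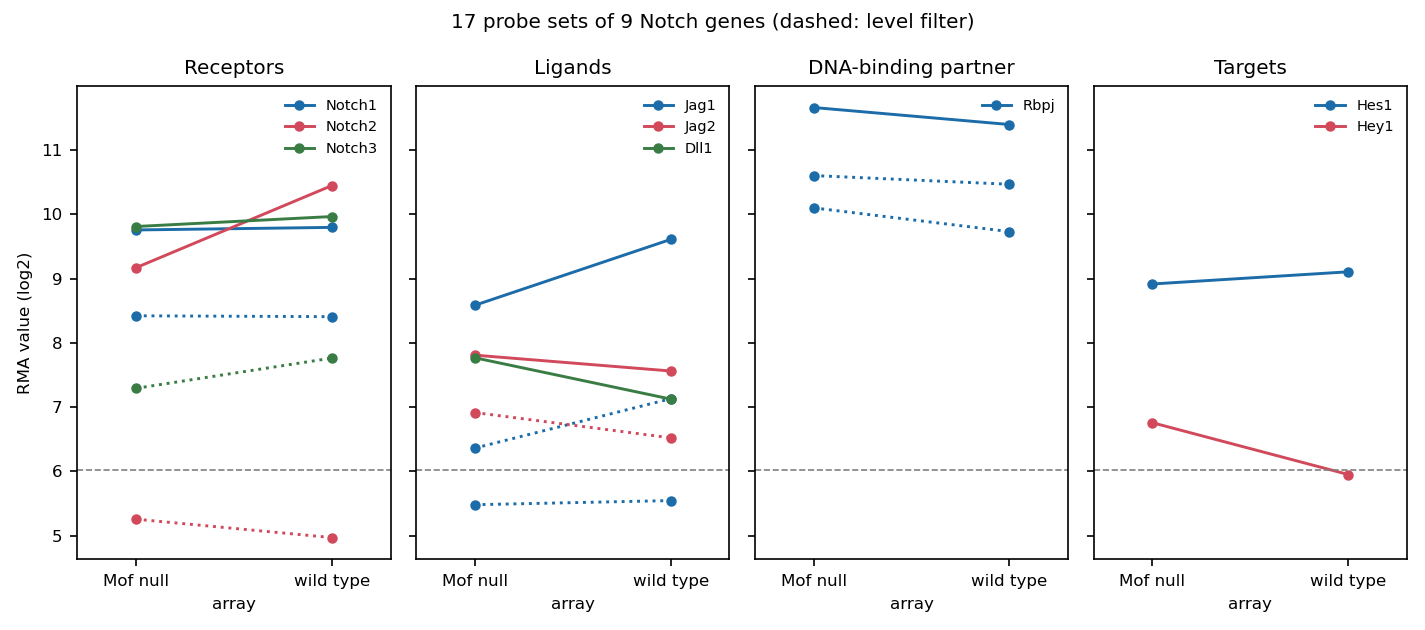
RMA values (log2, vertical axis) of the 17 probe sets on the Mof null array (left) and the wild type array (right), by role. Solid lines are the brightest probe set of a gene and dotted lines its other probe sets; the dashed line is the level filter at 6.02. The lines of Notch2 (9.17 in Mof null, 10.4 in wild type) and Jag1 (8.58 in Mof null, 9.61 in wild type) are the steepest of the solid ones.

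The ligands went both ways. Jag1, a Jagged ligand expressed by many mesenchymal and epithelial cells, read 8.58 in the Mof null culture and 9.61 in the wild type culture on its brightest probe set (1434070_at). A second probe set (1421106_at) read 6.36 in the Mof null culture and 7.13 in the wild type culture. The Mof null array was lower on both, by 1.03 log2 units (2.04-fold) and by 0.77 log2 units (1.70-fold), so that the call of 2-fold lower rests on the brightest probe set and lies 0.025 beyond the threshold. The third Jag1 probe set (1421105_at) was below the level filter on both arrays, at 5.48 in the Mof null culture and 5.54 in the wild type culture, a difference of -0.064.

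Jag2, the second Jagged ligand, was slightly higher in the Mof null culture. Its brightest probe set (1426430_at) read 7.81 in the Mof null culture and 7.56 in the wild type culture, and the other (1426431_at) 6.91 in the Mof null culture and 6.52 in the wild type culture. Both differences, 0.25 and 0.39, had the same sign and were near the SD between probe sets. Dll1, a Delta-like ligand needed for somite formation and neurogenesis, read 7.77 in the Mof null culture and 7.12 in the wild type culture on its single probe set (1419204_at). The Mof null array was higher by 0.64 log2 units or 1.56-fold, under the size used here, and 85.2% of expressed genes lay below this signed difference. Jag1 and Dll1 thus stood on opposite sides of 0 in the same pair of cultures.

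The nuclear partner and the targets stayed within 2-fold. Rbpj encodes the protein through which all Notch receptors act on DNA. It read 11.7, 10.6 and 10.1 on its 3 probe sets (1454896_at, 1448957_at and 1418114_at) in the Mof null culture, against 11.4, 10.5 and 9.73 in the wild type culture. All were higher in the Mof null culture, by 0.26, 0.14 and 0.37 log2 units, the first and second within the SD between probe sets and the third just beyond it. Hes1, a basic helix-loop-helix repressor and direct target of the pathway, read 8.92 in the Mof null culture and 9.11 in the wild type culture on its single probe set (1418102_at). Its difference of -0.19 was within the SD between probe sets.

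Hey1, a related repressor and target, read 6.76 in the Mof null culture and 5.95 in the wild type culture on its single probe set (1415999_at). It was higher in the Mof null culture by 0.81 log2 units or 1.75-fold, and 90.7% of expressed genes lay below this signed difference. Hey1 passed the level filter through the Mof null array alone, so a difference above 0 was fixed by the filter, while the other 8 genes passed it on both arrays. Neither target reached 2-fold.

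Counted together, 2 of the 9 genes were lower by 2-fold or more in the Mof null culture and 0 were higher by that size. The count of lower genes fell to 0 when the probe sets of each gene were averaged (Notch2 -0.50, Jag1 -0.62) and to 1 under quantile normalization, where Jag1 was at -0.9957. Over all expressed genes the lower count was 1082 with averaging and 1382 under quantile normalization, against 1429 without either change. Without either change 11.9% of all expressed genes were lower by 2-fold or more and 5.09% higher. The 2 genes are 22.2% of 9, and with 1 gene fewer the share would be near that background, so the count does not set the 9 genes apart. By probe set, 2 of the 15 expressed ones were lower by this size and 0 higher, against 11.1% and 4.49% of all expressed probe sets with 1 gene. Of the 15, 7 lay below 0 and 8 above. The median difference of the 9 genes was -0.04, against 0.10 for all expressed genes. The differences ran from -1.28 (Notch2) to 0.81 (Hey1).

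**Figure D2:**
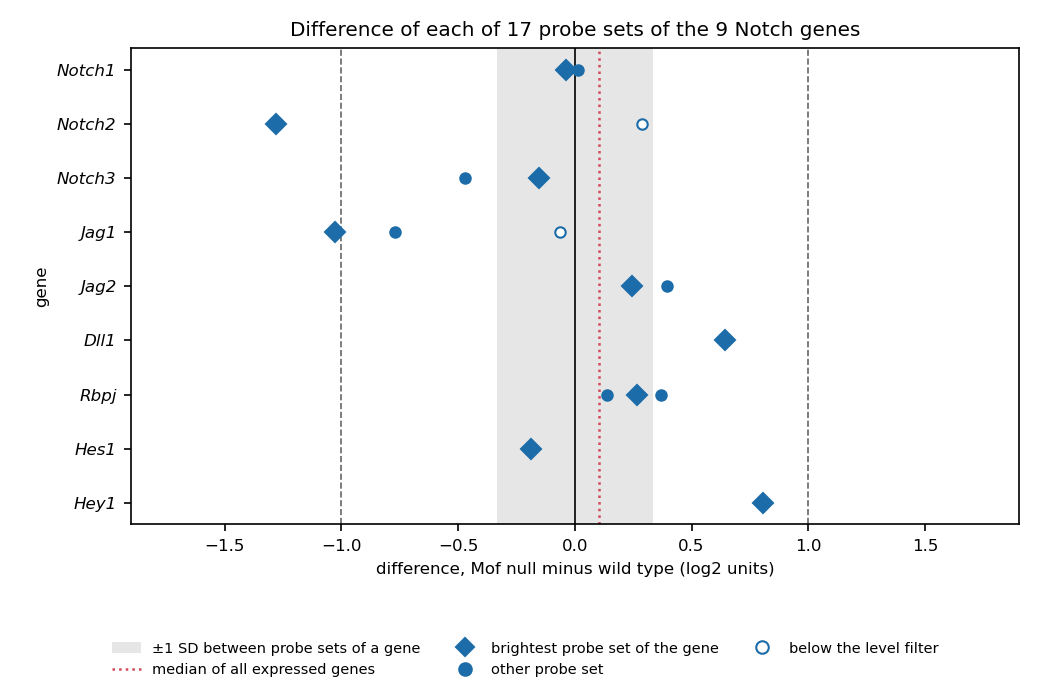
Difference of each probe set (Mof null minus wild type, log2 units) for the 9 genes. Diamonds are the brightest probe set of a gene, circles the others and open circles those below the level filter; dashed lines mark 2-fold, the grey band 1 SD (0.33) between probe sets of a gene and the dotted line the median expressed gene (0.10). Notch2 and Jag1 lie beyond 2-fold on 1 probe set each.

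The rest of the pathway was read from a list of 59 genes ordered by role, of which 55 had a probe set naming them alone, 43 were expressed and 4 (Aph1c, Maml3, Ncor1 and Hes4) were not analysed here. In the Mof null culture 4 of the 43 were lower by 2-fold or more and 1 was higher, or 9.30% and 2.33%, against 11.9% and 5.09% of all expressed genes. The median of the 43 was 0.11, and 24 lay above 0.

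The fourth receptor was the one pathway gene at least 2-fold higher. Notch4, a receptor best known from endothelium, read 8.54 in the Mof null culture and 7.22 in the wild type culture (1449146_at), higher by 1.32 log2 units or 2.49-fold. Its other 2 probe sets were below the level filter on both arrays and differed by 0.70 and 0.23. Notch2 and Notch4 were thus past 2-fold in opposite directions, with Notch1 and Notch3 between them. Of 11 endothelial markers, 5 were expressed, with a median difference of 0.62 and 1 at least 2-fold higher. The expressed ones were Esam (1.07), Egfl7 (0.85), Tek (0.62), Robo4 (-0.12) and Kdr (-0.29). The other 6, Cdh5, Vwf, Tie1, Emcn, Erg and Cldn5, were below the filter on both arrays. The part of such cells in the Notch4 value was not tested.

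Among the other ligands, Dlk1, an imprinted delta-like protein without the receptor-binding domain of the classical ligands, read 6.38 in the Mof null culture and 8.73 in the wild type culture on its one expressed probe set (1449939_s_at). It was lower by 2.36 log2 units or 5.12-fold, and its other probe set, below the filter, differed by 0.29. Dll3 and Dlk2 were within 2-fold and Dll4 was below the filter.

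The enzymes that modify and cleave the receptors held the 3 other genes at least 2-fold lower. Pofut1, which adds O-fucose to the receptor's EGF repeats, read 8.79 in the Mof null culture and 9.98 in the wild type culture on its brightest probe set (1443881_at), a difference of -1.20. Its other 2 probe sets, both expressed, differed by 0.11 and -0.093, so the probe sets of Pofut1 disagree on whether it differed at all. Of the other sugar transferases, Mfng, a Fringe that alters which ligands a receptor binds, had a difference of 0.82, with values of 6.81 in the Mof null culture and 5.99 in the wild type culture. Mfng too passed the filter through the Mof null array alone. The other Fringe genes did not share its direction: Rfng was at -0.024 on its brightest probe set, and Lfng, below the filter on both arrays, was at -1.06. Poglut1 was at 0.17.

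Gamma-secretase is a complex of several subunits, among them nicastrin, an APH1 protein and PEN2. Aph1b, which encodes 1 of its alternative APH1 subunits, read 6.69 and 6.60 on its 2 probe sets in the Mof null culture, against 8.03 and 8.11 in the wild type culture. Both were lower by more than 2-fold, with differences of -1.33 and -1.51. Ncstn, encoding nicastrin, read 7.35 in the Mof null culture and 8.48 in the wild type culture on its one expressed probe set (1418570_at), lower by 1.13 log2 units or 2.19-fold. The PEN2 gene Psenen and a further APH1 gene, Aph1a, differed by 0.26 and 0.24 on their brightest probe sets, while another Aph1a probe set differed by -0.67. The APH1 gene Aph1c was not analysed, as no probe set named it alone. Psen2 differed by -0.44. The measured subunits thus had differences on both sides of 0. The ADAM protease genes Adam10 and Adam17 were within 2-fold, at -0.61 and 0.041 on their brightest probe sets. The 3 expressed probe sets of Adam10 disagreed in sign, with differences from -0.61 to 0.41.

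None of the ligand endocytosis, receptor turnover, coactivator, corepressor or other target genes that were expressed passed 2-fold on its brightest probe set. The largest differences by role were those of Mib1, a ubiquitin ligase that acts on ligands (-0.52, with 0.12 on another expressed probe set), the Deltex gene Dtx1 (0.91), the Mastermind coactivator gene Maml1 (-0.51, and -0.56 on another expressed probe set) and the corepressor gene Ctbp1 (-0.49). Nrarp, a target that feeds back on the pathway, read 6.76 and 6.81 on its 2 probe sets in the Mof null culture, against 6.35 and 6.22 in the wild type culture, with differences of 0.41 and 0.59. Of the 8 measured target genes outside the 9, Hes6 and Nrarp were expressed and the other 6 were below the filter on both arrays. Hes1 was thus one of 4 HES, HEY and Nrarp genes above the filter, with differences from -0.19 to 0.81.

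**Figure D3:**
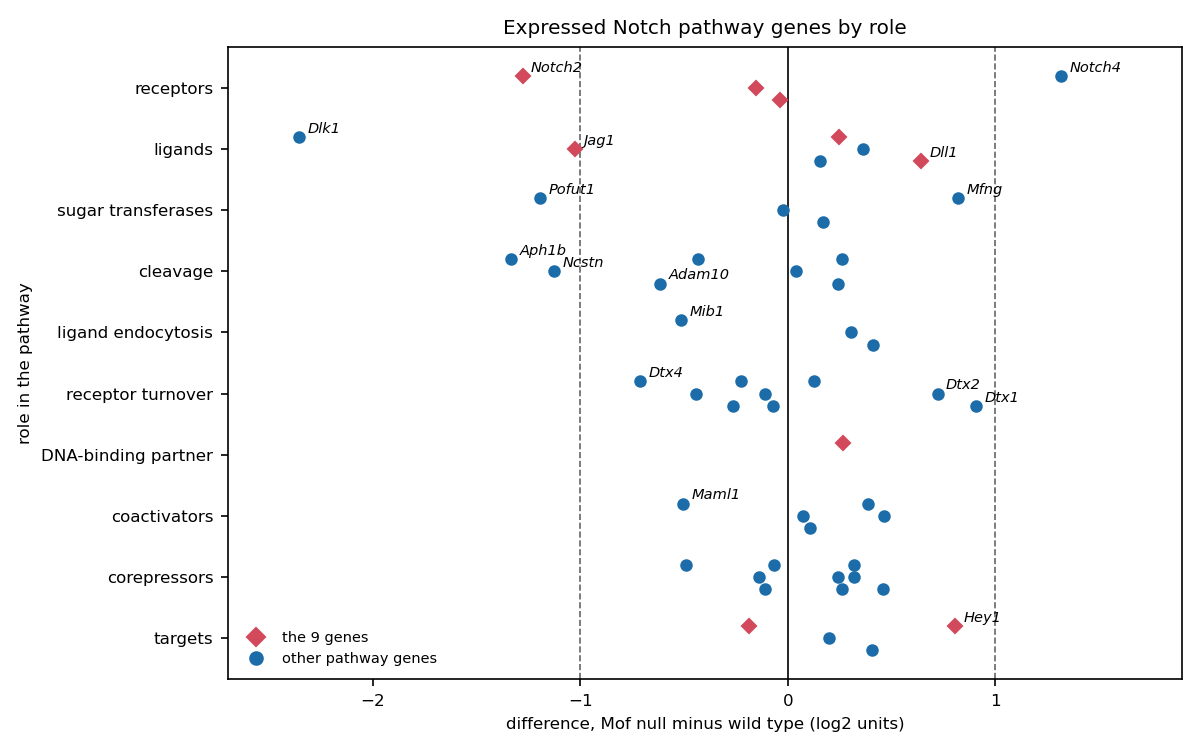
Differences (Mof null minus wild type, log2 units, brightest probe set) of the 9 genes (red diamonds) and 43 other expressed pathway genes (blue circles) by role. Dashed lines mark 2-fold. Dlk1 (-2.36) lies farthest to the left, Notch4 (1.32) farthest to the right.

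The 3 pathway genes whose difference was nearest that of Notch2 were Aph1b, Pofut1 and Ncstn, with gaps of 0.055, 0.084 and 0.15 log2 units among 43 genes ranked. This likeness is over 2 arrays and describes a single difference.

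Marker genes of other cell types moved on the same arrays, and in bulk RNA fewer cells of a type and less RNA per cell cannot be told apart. Of 17 fibroblast markers measured, 16 were at least 2-fold lower in the Mof null culture, with a median difference of -2.07, a mean level of 9.68 in the Mof null culture and 11.7 in the wild type culture, and single levels of 6.50 to 13.1 in the Mof null culture and 8.27 to 14.3 in the wild type culture. None of the 17 was below the level filter on either array. Of 14 macrophage markers, 13 were lower by that size (median -2.08), as were 7 of 9 expressed smooth muscle and pericyte markers (median -2.06). In each of these lists 2 genes, Ptprc and Itgam among the macrophage markers and Myh11 and Actg2 among the others, passed the filter through the wild type array alone, which fixed their sign. The differences of Notch2 (-1.28) and Jag1 (-1.03) had the sign of these 3 lists and were smaller in size than their medians. Both lay inside the range of each list. The ranges were -2.92 to -0.90 for fibroblast, -2.77 to -0.13 for macrophage and -3.57 to -0.049 for smooth muscle and pericyte markers. Single genes set the ends nearest 0, namely Pdgfra, Laptm5 and Mcam. Jag1 lay inside the fibroblast range through Pdgfra alone, as the next marker, Col1a2, was at -1.20. The smooth muscle and pericyte receptor Notch3 differed by -0.16 and -0.47 on its 2 probe sets, where the median of the smooth muscle and pericyte list was -2.06. Both values lay inside the range of that list. Its 2 expressed markers under 2-fold on their brightest probe sets were Mcam (-0.049) and Cspg4 (-0.53). The other expressed probe set of Cspg4 was past 2-fold, at -1.68. The part of these cells in the Notch2, Notch3, Jag1, Dlk1, Pofut1, Aph1b and Ncstn values was not tested.

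Embryonic stem cell markers lay on the other side of 0. All 11 were higher in the Mof null culture, 1 of them at least 2-fold, with a median of 0.74 and a mean level of 12.0 in the Mof null culture and 11.3 in the wild type culture. Their differences ran from 0.025 (Klf4), well within the SD between probe sets, to 1.52 (Fgf4). Of all expressed genes, 56.7% lay above 0. Hey1 (0.81) and Dll1 (0.64) differed from that median by 0.064 and -0.099 log2 units. Hey1 passed the level filter through the Mof null array alone, which fixed its sign. The median of the 5 expressed endothelial markers, 0.62, was also near the Dll1 difference, so this nearness was not particular to embryonic stem cell markers. A scaling relative to the embryonic stem cell marker median was chosen after the data were seen and subtracts the same amount from every gene. On it, Notch1 was at -0.78, Hes1 at -0.93, Notch3 at -0.90, Jag2 at -0.50 and Rbpj at -0.48. Any gene between 0 and 0.74 changes sign by this construction, as Dll1, Jag2 and Rbpj did. On this scale 2 of the 9 genes were at least 2-fold lower, Notch2 at -2.02 and Jag1 at -1.77, against 29.4% of all expressed genes.

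**Figure D4:**
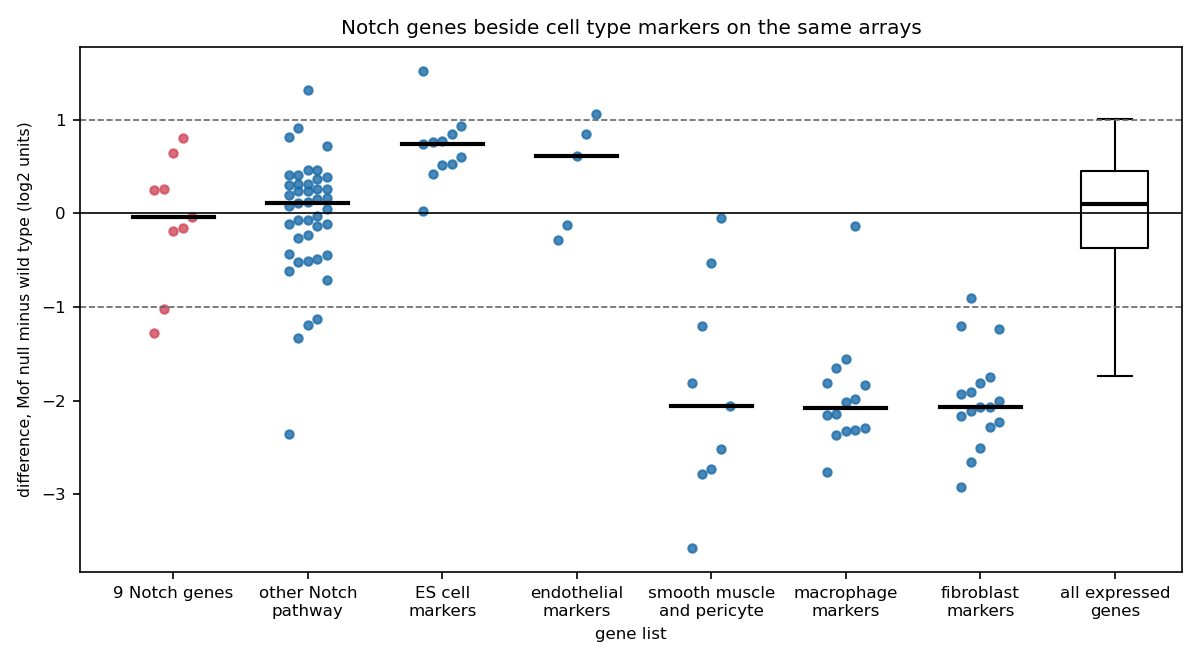
Differences (Mof null minus wild type, log2 units) of expressed genes in each list; bars are medians, dashed lines mark 2-fold, and the box of all 12015 expressed genes spans the quartiles with whiskers at percentiles 5 and 95. The 9 Notch genes (median -0.04) lie between the embryonic stem cell markers (0.74) and the fibroblast markers (-2.07).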

How the data were processed

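Each of 2 cultures was hybridised to 1 array. The deposited table gives 45101 probe sets as log2 values, which the authors produced by RMA (affy, R 2.10.0) per the submitters' processing notes; the range of the values shows the log2 scale. RMA quantile-normalizes the arrays, so a change of most transcripts in one direction cannot be seen, and the other arrays of that run, if any, are not given in the sources used here. The platform annotation names 1 gene for 34945 probe sets. Each gene was represented by its brightest probe set (mean of the 2 arrays), and was expressed if either value reached 6.02 (percentile 50 of all values). Differences are Mof null minus wild type. No test was run and no replicate could be left out, as each genotype has 1 array. The counting was tested on simulated differences. The members and lists were chosen with earlier results of these data known. Named genes are the 9 members, Kat8, the expressed pathway genes past 2-fold, the one with the largest difference in each role and the 3 nearest to Notch2. The other genes given with values, namely Mfng, Rfng, Lfng, Poglut1, Aph1a, Psenen, Psen2, Adam10, Adam17 and the single marker genes, were chosen after their values were seen. Alternatives were the mean of all probe sets, leaving out _s_at and _x_at probe sets, other level filters, centring, lowess, quantile normalization and other thresholds. Python 3.11.15, numpy 2.4.6, pandas 2.3.3, statsmodels 0.14.6 and matplotlib 3.10.9 were used.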

Additional observations from a re-analysis of the deposited data

How the results depend on the processing

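Notch2 and Jag1 kept their negative sign under each alternative run. With the mean of all probe sets, including those below the filter, Notch2 was at -0.50 and Jag1 at -0.62, so that 0 of the 9 genes were at least 2-fold lower, and of the other pathway genes 2 were lower and 0 higher. Averaging also lowered the counts over all expressed genes, to 1082 lower and 462 higher, from 1429 and 611 by the brightest probe set. Under quantile normalization Jag1 was at -0.9957 and 1 of the 9 genes was at least 2-fold lower, while 1382 of all expressed genes were lower and 681 higher. At 1.5-fold, 2 of the 9 genes were lower and 2 (Dll1 and Hey1) higher, the sign of Hey1 being fixed by the filter. Of the 43 other expressed pathway genes 6 were lower and 4 higher, among them Mfng, whose sign was fixed in the same way. Of the 12015 expressed genes 2303 were lower and 2084 higher, so the counts are to be read against these totals. At 4-fold, 0 of the 9 genes were lower, 1 other pathway gene was lower and 0 higher, and of the 12015 expressed genes 389 were lower and 35 higher. A level filter at percentile 75 left 926 genes lower and 347 higher, out of fewer expressed genes than 12015, and dropped Jag2, Dll1 and Hey1. Relative to the embryonic stem cell marker median, an alternative chosen after seeing the data, the medians were -0.78 for the 9 genes and -0.63 for the other pathway genes, of which 12 were at least 2-fold lower and 0 higher, with 3534 of all genes lower and 60 higher. The pathway median of 0.11 turned to -0.039 under the lowess correction. No paired analysis was possible because each genotype has 1 array. The number of arrays limits the precision. Values near the filter, such as those of Hey1, Mfng and the second Jag1 probe set, are the least certain in size.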

Other observations

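Some values were identical on the 2 arrays within a tolerance of 1e-06. This held for 282 of the 18193 genes, of which 36 were expressed, and for Hey2, Neurl1b and Rbpjl of the Notch pathway list, which read 4.24, 5.20 and 5.22 on each array, all below the level filter.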
